A study of Mus musculus with 24 samples.

Results

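The genes described here encode the sensors and effectors of mouse inflammasomes: the sensors Nlrp1b, Nlrp3, Nlrc4, Naip2, Naip5 and Aim2, the adaptor Pycard, the caspases Casp1 and Casp4, and the pore-forming Gsdmd. They were picked by name, and all 10 were present among the 17301 genes of the expression table. The choice was made with earlier results of these data known. Among these was that Nlrp1b was higher in every tumour library than in the lamina propria, in the deposited values. The tumour values of Nlrp1b are therefore given as a description with no test. Counts of changed genes between tumour and lamina propria are out of the other 9.

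Inflammasomes are cytosolic complexes that myeloid cells build on sensing microbial products or damage. A sensor assembles, directly or through the adaptor ASC (the product of Pycard), into a platform on which caspase-1 becomes active, which cleaves pro-IL-1β, pro-IL-18 and gasdermin D. The freed gasdermin D fragment makes pores in the plasma membrane, through which cytokines leave and the cell may die by pyroptosis. Caspase-11, encoded by mouse Casp4, binds lipopolysaccharide in the cytosol itself and cleaves gasdermin D without a separate sensor, and in the colon, where bacteria are dense, both routes have been studied in colitis and tumour models.

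The data were RNA-seq profiles of 4 CD11b+ populations sorted from the colon lamina propria (LP) of C57BL/6J mice (strain C57/BL in the labels) and from colonic tumours. The tumour donors were APC/Min mice, which carry the Apc Min allele on the C57BL/6J background and develop adenomas. The populations were F4/80hi MHCIIhi macrophages, F4/80hi MHCIIlow macrophages, F4/80int Ly6Chi MHCII- monocytes and F4/80- neutrophils, and each of the 8 groups held 3 libraries. Every library came from a pool of several adult mice, numbered by donor (II to V in LP, and I, II, V and VII in tumour). The tumour mice had been given dextran sodium sulphate (DSS) in drinking water, which causes colitis and hastens adenoma formation. For the LP donors the sources differ, since the labels call the tissue healthy while the study's methods give control C57BL/6J mice DSS as well. LP and tumours were also digested and enriched by different procedures, so tissue, genotype and isolation cannot be told apart in any comparison of tumour with LP. The Apc Min allele is present in every cell of these mice, not in the epithelium alone.

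Between 12.8 and 41.7 M reads per library fell on genes (median 26.4 M), and each of the 10 genes had more than 3 reads in every library. Macrophage markers summed to 4219 to 8001 RPKM (reads scaled to transcript length and to a normalised library size) in the macrophage libraries and to 597 to 1126 RPKM in the others. Neutrophil markers summed to 11980 to 31213 RPKM in neutrophils and to 31.0 to 680 RPKM elsewhere, and monocyte markers to 769 to 3173 RPKM in monocytes, 644 to 1281 RPKM in neutrophils and 3.18 to 21.1 RPKM in macrophages. The labelled populations therefore carried the markers of their names, with the monocyte list shared in part by neutrophils. Of the other lists, T and NK cell markers summed to at most 7.04 RPKM in any library, eosinophil markers to 20.6 to 42.2 RPKM in neutrophils, and dendritic cell markers to 44.3 to 65.3 RPKM in LP and 5.04 to 14.3 RPKM in tumour MHCIIhi macrophages. The dendritic cell sums were highest in LP neutrophils, at 75.6 to 146.8 RPKM, against 2.45 to 18.3 RPKM in tumour neutrophils. In such bulk libraries fewer cells of a type and less RNA per cell cannot be told apart.

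Levels differed widely between the 10 genes, and levels below are log2 RPKM, which is per length and so can be compared between genes. Nlrp3, which responds to membrane damage and ion fluxes, was the most abundant of them in LP and tumour neutrophils. Gsdmd was the most abundant in the tumour macrophages of both kinds and in the monocytes of both tissues. Casp4 led in the LP macrophages of both kinds. Nlrp1b was the lowest in all 8 groups, with group means from -1.30 ± 1.01 (LP MHCIIlow macrophages) to 1.81 ± 0.26 (tumour MHCIIhi macrophages; SD, n = 3) and 43 to 916 reads per library. The counting limits some of these levels: 36.2% of the 51-base stretches of the exons of Naip5 and 18.7% of those of Naip2 occur in other Naip genes, Naip6 and Naip1 most of all, so reads could be split among these paralogs and the values of both genes are uncertain. Likewise 11.5% of the stretches of Pycard also lie in Gm45205, a gene on the opposite strand that covers 12.8% of its exons. These shares were taken over all annotated exons, which for Pycard is 3800 bases against a length of 1405 in the deposited values.

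**Figure D1:**
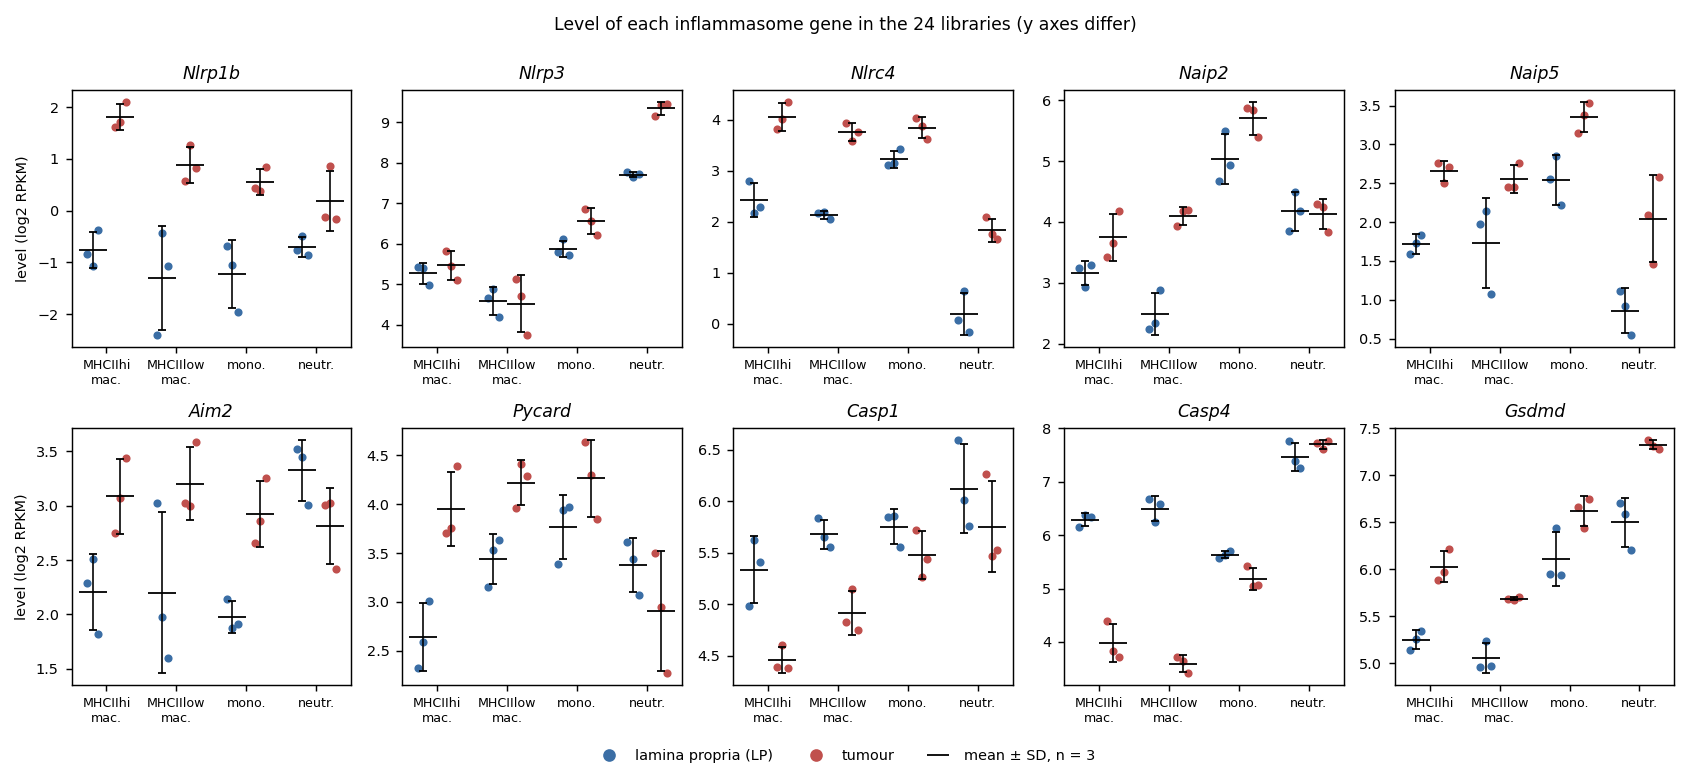
Level of each of the 10 genes in log2 RPKM (y axis, a different range in each panel) in the 4 sorted populations (x axis), with LP libraries in blue, tumour libraries in red and the mean ± SD of 3 libraries in black. Nlrp1b lies higher in tumour than in LP in all 4 populations, Casp4 falls from means of 6.29 and 6.50 in LP macrophages to 3.98 and 3.59 in tumour macrophages, and Nlrp3 reaches its highest mean, 9.34, in tumour neutrophils.

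The regions just upstream of 4 genes are shown because these genes gave the largest or the opposite changes described below. Casp1 and Casp4 are neighbours on the plus strand of chromosome 9 (GRCm38, 5298517 to 5307265 and 5308828 to 5336783), and both were lower in tumour macrophages. Nlrc4 (chromosome 17, 74425438 to 74459142, minus strand) and Nlrp1b (chromosome 11, 71153102 to 71230733, minus strand) were higher there. Each line gives 250 bases before a RefSeq start (build GRCm38.p6), 5′ to 3′ on the strand of the gene, at chr9:5298267-5298516 for Casp1, chr9:5308599-5308848 for Casp4, chr17:74459109-74459358 for Nlrc4 and chr11:71230734-71230983 for Nlrp1b. Capitals mark matches, on either strand, to the NF-kappaB consensus or to the core of the hypoxia response element (ACGTG).
Casp1: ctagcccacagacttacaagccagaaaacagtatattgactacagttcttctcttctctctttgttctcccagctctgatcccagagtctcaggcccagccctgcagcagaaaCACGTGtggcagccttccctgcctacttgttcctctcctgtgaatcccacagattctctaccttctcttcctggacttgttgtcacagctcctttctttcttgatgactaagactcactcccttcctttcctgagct
Casp4: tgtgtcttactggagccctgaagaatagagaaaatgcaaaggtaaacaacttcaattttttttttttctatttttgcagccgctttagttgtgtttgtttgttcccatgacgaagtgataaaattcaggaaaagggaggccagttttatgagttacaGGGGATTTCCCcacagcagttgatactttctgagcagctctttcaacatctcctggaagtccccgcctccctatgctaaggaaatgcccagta
Nlrc4: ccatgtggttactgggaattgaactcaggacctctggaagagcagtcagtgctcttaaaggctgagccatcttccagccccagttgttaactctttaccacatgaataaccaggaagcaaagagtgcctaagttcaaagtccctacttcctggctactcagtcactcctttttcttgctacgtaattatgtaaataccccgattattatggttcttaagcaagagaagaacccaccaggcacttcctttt
Nlrp1b: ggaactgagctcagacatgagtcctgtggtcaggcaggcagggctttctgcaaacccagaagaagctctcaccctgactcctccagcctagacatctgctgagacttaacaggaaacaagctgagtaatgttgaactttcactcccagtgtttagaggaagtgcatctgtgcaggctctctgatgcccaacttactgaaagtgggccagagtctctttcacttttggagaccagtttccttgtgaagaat
The Casp4 window held 2 overlapping NF-kappaB matches, GGGGATTTCC and GGGATTTCCC, 93 and 92 bases before the start, and 3.9% of the 32851 mouse windows of this length held at least 1. The Casp1 window held the palindrome CACGTG, which counts as a match on each strand, and 16.6% of all windows held the core. No match to either was present in the Nlrc4 and Nlrp1b windows. RefSeq gave windows for 9 of the 10 genes, and among the others an NF-kappaB match occurred upstream of Naip5 and of 1 of the 2 Nlrp3 starts. That Nlrp3 window also held the hypoxia core, as CACGT, so the core was not particular to Casp1. Core matches in the remaining windows are not given here. The interferon-stimulated response element (GAAA, any 2 bases and GAAA again, in 2.98% of all windows), the GAS element (TTCNNNGAA, 7.02%) and the AP-1 site (TGANTCA, 6.75%) had no match in any window of these genes.

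Nlrp1b, a sensor that is set free when its N-terminal part is degraded and that Dpp9 holds inactive, was higher in tumour in each population. Its libraries in LP were at -0.84, -1.06 and -0.38 in MHCIIhi macrophages and at -2.41, -0.42 and -1.07 in MHCIIlow macrophages. In LP monocytes they were at -0.68, -1.06 and -1.95, and in LP neutrophils at -0.76, -0.50 and -0.87. Tumour libraries were at 1.62, 1.72 and 2.10 in MHCIIhi macrophages, 0.57, 1.26 and 0.83 in MHCIIlow macrophages, 0.43, 0.38 and 0.85 in monocytes, and -0.13, 0.86 and -0.17 in neutrophils. In the deposited values no tumour library lay below any LP library. The nearest values on either side were -0.38 (LP MHCIIhi macrophages, pool V) and -0.17 (tumour neutrophils, pool V). These values divide reads by a normalised library size. That size was 0.4655 to 0.483 of the reads on genes in tumour neutrophils and 0.6302 to 0.6824 in LP neutrophils. Per read the neutrophil libraries overlapped: tumour pool V had 43 of 15.9 M reads and LP pool IV 60 of 19.7 M. LP MHCIIhi pool V, with 152 of 27.7 M, was also above that tumour library. The described differences were 2.57, 2.19, 1.78 and 0.89 log2 units, or 5.94-, 4.56-, 3.44- and 1.86-fold, in MHCIIhi macrophages, MHCIIlow macrophages, monocytes and neutrophils. The neutrophil difference was 0.56 without tumour pool II, and with 1 RPKM added before taking logs the differences were 1.499, 0.98, 0.77 and 0.42, on a scale that understates the differences of low genes. All 4 LP groups averaged 0.455 to 0.617 RPKM, under the minimum of 1 RPKM for testing, so the gene entered the tested set only through its tumour groups. Among the tumour groups MHCIIhi macrophages stood above the rest without overlap, while MHCIIlow macrophages, monocytes and neutrophils overlapped with their neighbours in that order, and the order of the 4 LP groups was within their spread.

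Over the 24 libraries the tested genes whose levels followed Nlrp1b most closely were Dglucy (Pearson's r = 0.90), Slc35c2 (0.88), Man2b1 (0.88), B4galnt1 (0.87) and Pigs (0.86). These points share tissue, population and isolation, and the correlations are descriptions. Dglucy, for example, averaged 0.84 to 1.62 log2 RPKM in the LP groups and 1.71 to 3.04 in the tumour groups, with MHCIIhi tumour macrophages again highest. Man2b1 and Pigs were also highest there. Slc35c2 and B4galnt1 were highest in MHCIIlow tumour macrophages instead, at 4.773 against 4.65 and at 6.065 against 5.928 in MHCIIhi cells. Man2b1 encodes a lysosomal mannosidase and Pigs a subunit of the GPI transamidase. Among the other inflammasome genes r ran from -0.68 (Casp1) and -0.61 (Casp4) to 0.53 (Nlrc4), with Nlrp3 at 0.00.

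**Figure D2:**
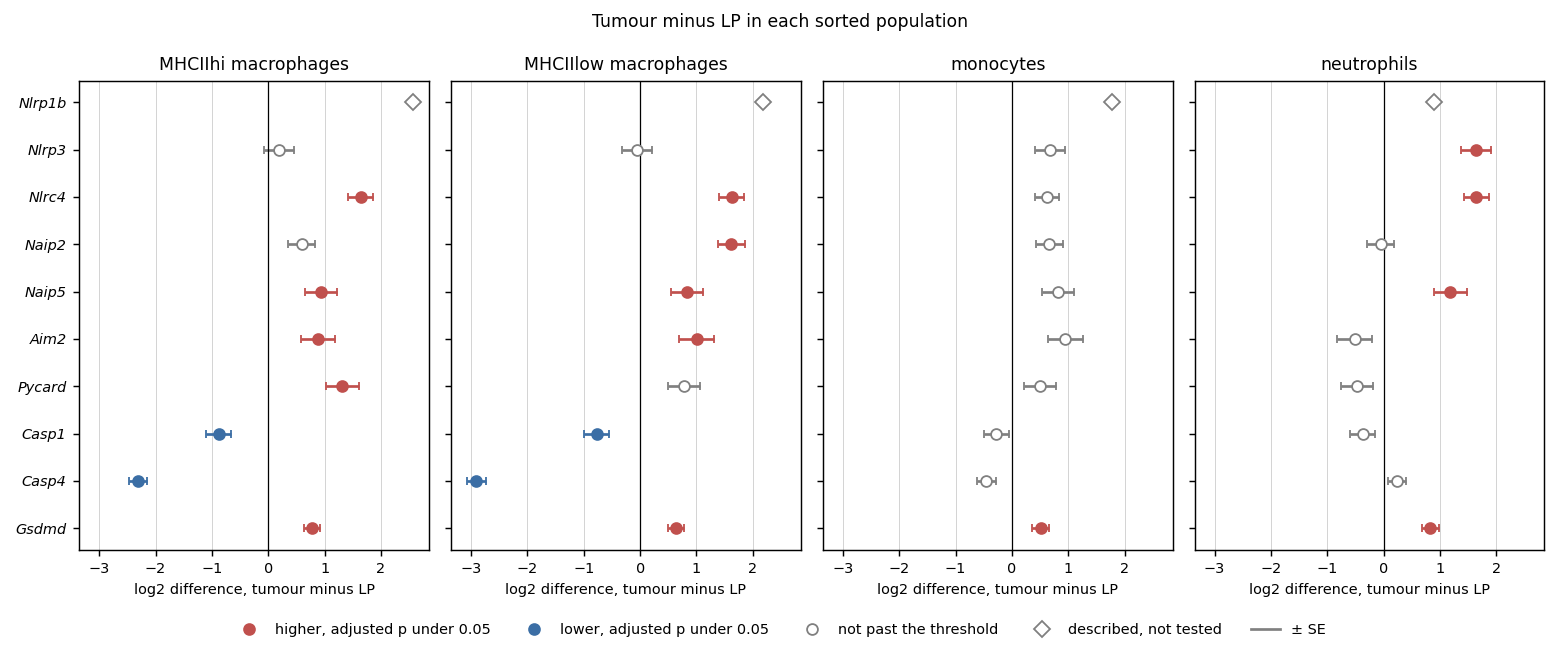
Tumour minus LP difference in log2 RPKM (x axis) for each gene (y axis) in each sorted population, with bars of ± SE from the fit and filled points where the limma adjusted p was under 0.05. Casp1 and Casp4 lie to the left of 0 in both macrophage subsets, and Gsdmd is filled to the right of 0 in all 4 panels; diamonds mark Nlrp1b, which was not tested.

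In macrophages the comparison of tumour with LP asks how these genes differ in tumour-resident cells. In MHCIIhi macrophages 7 of the 9 tested genes passed the threshold (limma on log2 RPKM, adjusted p under 0.05), 5 higher in tumour and 2 lower, where 19.5% of all 12878 genes tested passed, 8.01% higher and 11.5% lower. In MHCIIlow macrophages it was again 5 higher and 2 lower, against 23.3% of all genes, of which 11.5% were higher and 11.8% lower. The median difference of the 9 genes was 0.78 log2 units in both subsets, against 0.00 and 0.06 over all genes. The caspases were lower and most sensors higher.

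Casp4 gave the largest differences in macrophages among the 9 tested genes. Its 3 LP libraries of MHCIIhi macrophages were at 6.16, 6.38 and 6.34 and the tumour libraries at 4.39, 3.83 and 3.72, which is 4.97-fold lower (-2.31 ± 0.17 log2 units, SE; limma adjusted p = 1.75e-08). In MHCIIlow macrophages LP libraries were at 6.67, 6.24 and 6.58 and tumour libraries at 3.71, 3.65 and 3.42, which is 7.50-fold lower (-2.91 ± 0.17; adjusted p = 8.43e-10). The gap between the 2 tissues was wider than the spread of the libraries by far in both subsets, and no left-out library or other setting ended either call. Casp1, whose protease matures IL-1β and IL-18, fell less. In MHCIIhi macrophages it went from 4.98, 5.62 and 5.41 in LP to 4.39, 4.60 and 4.37 in tumour, 1.84-fold lower (-0.88 ± 0.22; adjusted p = 0.00751). In MHCIIlow macrophages it went from 5.83, 5.66 and 5.56 to 4.83, 5.15 and 4.75, 1.71-fold lower (-0.77 ± 0.22; adjusted p = 0.0148), a call that was lost without LP pool II (0.0606) or tumour pool VII (0.0626).

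The balance between the 2 caspases therefore differed between tissues. Within each library of LP macrophages Casp4 was above Casp1, by 0.96 ± 0.21 log2 units in MHCIIhi and 0.82 ± 0.22 in MHCIIlow cells (SD, n = 3). Within each library of tumour macrophages it was below, by -0.47 ± 0.41 and -1.32 ± 0.20. In MHCIIhi pool I, however, the 2 genes were level (4.387 for Casp4 and 4.391 for Casp1). Gsdmd, the shared substrate of both caspases, was below Casp4 in every LP macrophage library (-1.04 ± 0.07 and -1.44 ± 0.38) and above it in every tumour macrophage library (2.05 ± 0.50 and 2.10 ± 0.17). In neutrophils Casp4 stayed above Casp1 in all 6 libraries and above Gsdmd in all 6, while in monocytes of both tissues Gsdmd was above Casp4.

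**Figure D3:**
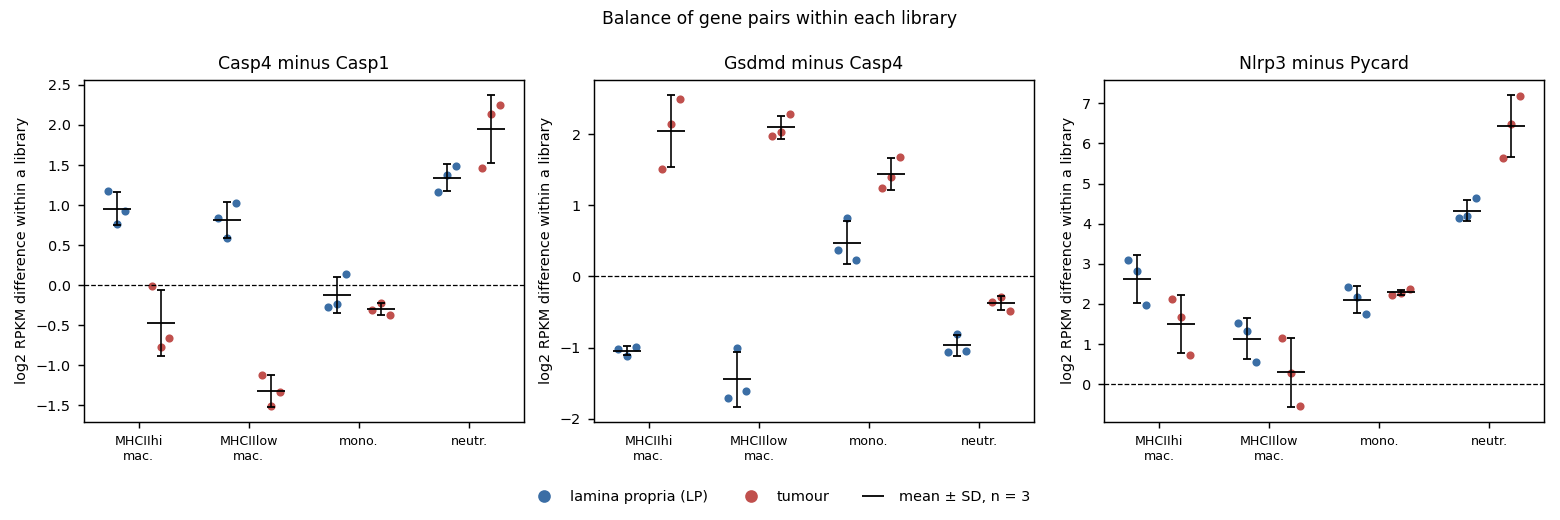
Difference in log2 RPKM between 2 genes of the same library (y axis) for 3 pairs of genes in the 4 populations (x axis), with LP in blue, tumour in red and the mean ± SD of 3 libraries in black. Casp4 minus Casp1 is above 0 in the LP macrophages and below 0 in the tumour macrophages (1 MHCIIhi library at -0.0042), Gsdmd minus Casp4 shows the opposite, and Nlrp3 minus Pycard reaches 6.43 in tumour neutrophils.

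Nlrc4 and its upstream receptors form the inflammasome for bacterial proteins: NAIP5 binds flagellin, NAIP2 the rod protein of type III secretion systems, and either then recruits NLRC4. Nlrc4 libraries were at 2.81, 2.18 and 2.29 in LP MHCIIhi macrophages against 3.82, 4.02 and 4.36 in tumour, 3.11-fold higher (1.64 ± 0.22; limma adjusted p = 1.86e-05). In MHCIIlow macrophages they were at 2.17, 2.20 and 2.06 against 3.93, 3.60 and 3.77, 3.08-fold higher (1.62 ± 0.22; adjusted p = 1.6e-05). The groups did not overlap in either subset, and these calls held in every alternative. Naip2 was 3.06-fold higher in tumour MHCIIlow macrophages (2.25, 2.34 and 2.88 against 3.93, 4.19 and 4.19; adjusted p = 4.58e-05), whereas in MHCIIhi macrophages its difference of 0.59 ± 0.24 did not pass (adjusted p = 0.0898), and the difference between those 2 effects, 1.02 ± 0.34, did not pass either (adjusted p = 0.159).

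Naip5 passed in both subsets, by 1.92-fold in MHCIIhi (0.94 ± 0.28; limma adjusted p = 0.0235) and 1.77-fold in MHCIIlow cells (0.83 ± 0.28; adjusted p = 0.0407). Aim2, the sensor of cytosolic DNA, was 1.84-fold (0.88 ± 0.31; adjusted p = 0.0493) and 2.01-fold higher (1.00 ± 0.31; adjusted p = 0.0217). Its libraries overlapped in MHCIIlow cells, where LP pool II (3.0241) lay above tumour pools I (3.0215) and V (3.001). These 4 calls rested on individual libraries. Naip5 lost its call in MHCIIhi cells without LP pool III or IV or tumour pool I or VII (adjusted p from 0.0589 to 0.08), and in MHCIIlow cells without LP pool IV (0.245, the difference then 0.50) or without any 1 tumour pool (0.065 to 0.135). Aim2 lost it in MHCIIhi cells without any 1 LP pool or tumour pool V or VII (0.0511 to 0.202) and with the pool as a random block (0.0525), and in MHCIIlow cells without LP pool III or IV or tumour pool VII (0.0768 to 0.137). With only the 6 libraries of a comparison fitted, Aim2 was lost in both subsets (0.066 and 0.15) and Naip5 in MHCIIlow cells (0.132), and centring each library on its median lost Aim2 in MHCIIhi (0.0728) and Naip5 in MHCIIlow cells (0.0731).

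Pycard libraries rose from 2.32, 2.59 and 3.01 in LP to 3.71, 3.76 and 4.39 in tumour MHCIIhi macrophages, 2.48-fold (1.31 ± 0.29; limma adjusted p = 0.0027). In MHCIIlow macrophages the difference was 0.78 ± 0.29 (adjusted p = 0.056), and it passed under 4 alternatives, with adjusted p from 0.0155 to 0.0436. Gsdmd was higher in tumour in both subsets, from 5.14, 5.26 and 5.35 to 5.89, 5.98 and 6.21 in MHCIIhi (1.71-fold; adjusted p = 0.000704) and from 4.96, 5.24 and 4.97 to 5.69, 5.67 and 5.70 in MHCIIlow cells (1.55-fold; adjusted p = 0.00306). For both genes the libraries of the 2 tissues did not overlap. Nlrp3 showed no such shift, at 0.19 ± 0.27 in MHCIIhi (adjusted p = 0.693) and -0.06 ± 0.27 in MHCIIlow macrophages (adjusted p = 0.924).

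Markers of other cells differed in the same macrophage libraries. The 7 neutrophil markers summed to 31.0 to 86.0 RPKM in LP macrophages and to 153 to 680 RPKM in tumour macrophages, and most of that rise was Mmp9, which had 7.61 to 54.1 RPKM in LP macrophages and 101 to 645 RPKM in tumour macrophages. In MHCIIhi macrophages the other members named here did not move together: mean levels in LP and tumour were 5.11 and 5.24 log2 RPKM for Csf3r, -4.66 and -4.72 for Retnlg and -2.64 and -4.06 for Cxcr2, and Ly6g had 0 reads in every library of both tissues. S100a8 and S100a9 are not given for this subset, so these values cover only part of the list. In MHCIIlow macrophages Ly6g went from 0 reads in LP to 0 to 40 reads in tumour, and S100a8 from 13 to 32 reads to 65 to 101. Of all 7 neutrophil markers, 5 in LP and 6 in tumour had more than 3 reads in every MHCIIlow library. In MHCIIhi macrophages it was 4 in LP and 3 in tumour. The 6 fibroblast markers went the other way, from 6.83 to 62.0 RPKM in LP macrophages to 0.181 to 1.17 RPKM in tumour macrophages. Casp4, which fell in tumour macrophages, was higher in neutrophils than in any macrophage library. The part of these other cells in the macrophage differences was not tested.

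In monocytes 1 of the 9 genes, Gsdmd, passed between tumour and LP, where 9.29% of all genes passed, 4.86% higher and 4.43% lower. Its libraries were at 5.95, 6.44 and 5.94 in LP and at 6.66, 6.44 and 6.75 in tumour, 1.43-fold higher (0.51 ± 0.15; limma adjusted p = 0.0314), and the call was lost without LP pool III or V or tumour pool I or V (0.0968 to 0.135) and when the 6 libraries were fitted alone (0.138). Of the sensors that did not pass, Aim2 differed by 0.95 (adjusted p = 0.0589), Naip5 by 0.81 and Nlrc4 by 0.62 (both 0.0822), Naip2 by 0.67 (0.0889) and Nlrp3 by 0.68 (0.125). Aim2, Naip5, Nlrc4 and Naip2 did pass in voom on the recovered reads (0.00865 to 0.0364), and Naip2 also without LP pool IV (0.0288), so the count of changed genes in monocytes ran from 0 to 5 over the alternatives. Casp4 differed by -0.46 ± 0.17 (adjusted p = 0.0963) and Casp1 by -0.28 ± 0.22 (0.517). The median of the 9 genes was 0.62 log2 units, against 0.00 over all genes.

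In neutrophils 4 of the 9 genes were higher in tumour and none was lower, where 32.2% of all genes passed, 13.1% higher and 19.0% lower. Nlrp3 rose from 7.76, 7.64 and 7.72 to 9.15, 9.43 and 9.44, 3.11-fold (1.64 ± 0.27; limma adjusted p = 0.000113), to the highest level of any of these genes in any group. Nlrc4 rose 3.12-fold (1.64 ± 0.22; adjusted p = 1.28e-05), from 0.08, 0.65 and -0.15 to 2.09, 1.76 and 1.66, yet it stayed below its level in the other tumour populations. Gsdmd rose 1.78-fold (0.83 ± 0.15; adjusted p = 0.000234), from 6.70, 6.59 and 6.20 to 7.38, 7.32 and 7.28. For Nlrp3, Nlrc4 and Gsdmd the highest LP library lay below the lowest tumour library. The normalised library size was 0.4655 to 0.483 of the reads on genes in tumour neutrophils and 0.6302 to 0.6824 in LP neutrophils. Per read these rises would therefore be smaller.

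Naip5 rose 2.27-fold in neutrophils (1.19 ± 0.28; limma adjusted p = 0.00334), though not when the 6 libraries were fitted alone (0.0782). Per read the rise of Naip5 would also be smaller, and the libraries overlapped. Tumour pool II had 117 of 17.5 M reads and LP pool III 269 of 37.9 M. Casp4 and Casp1 did not pass there, at 0.24 ± 0.17 (adjusted p = 0.306) and -0.37 ± 0.22 (0.22), nor did Aim2 (-0.51 ± 0.31; 0.22) and Pycard (-0.47 ± 0.29; 0.231). Per read the mean of Casp4 would be lower in tumour than in LP. The median of all genes lay at -0.12 in this comparison and at 0.12 once each library was centred on its median, under which Casp4 passed (0.48; adjusted p = 0.0401), and Casp1 passed without tumour pool I (-0.63; 0.0367). Tumour neutrophils also held more epithelial marker RNA, with 8 markers summing to 168 to 342 RPKM against 16.2 to 74.3 RPKM in LP, as did tumour monocytes, at 114 to 346 RPKM against 19.9 to 213 RPKM. All 8 epithelial markers had more than 3 reads in every tumour library of both populations, and 6 or 7 of 8 in LP. B and plasma cell markers went the other way in both, at 358 to 1300.3 RPKM in LP and 0.66 to 20.1 RPKM in tumour neutrophils, and at 157 to 575 RPKM in LP and 0.192 to 4.68 RPKM in tumour monocytes. Their part in the neutrophil and monocyte values, the monocyte call of Gsdmd included, was not tested.

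Averaged over the 4 populations, each weighted equally, all 9 genes passed, 7 higher in tumour and Casp1 and Casp4 lower, where 42.4% of all genes passed, 19.4% higher and 23.0% lower. This average uses the same libraries as the comparisons within populations. The averaged differences ran from 0.53 (Pycard; limma adjusted p = 0.00577) to 1.38 (Nlrc4; 6.95e-09) among the genes that were higher. They were -0.58 for Casp1 (0.000331) and -1.36 for Casp4 (2.92e-10), although Casp4 itself differed in neutrophils by 0.24. Some genes with a higher average also stood below 0 in 1 population. These were Aim2 (-0.51), Pycard (-0.47) and Naip2 (-0.05) in neutrophils and Nlrp3 (-0.06) in MHCIIlow macrophages, none of which passed there.

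Whether the tumour difference varied between populations was tested directly. Between macrophages (mean of both subsets) and monocytes 2 of the 9 genes differed, 1 in each direction, against 9.19% of all genes (3.55% with a higher value in macrophages and 5.64% with a lower one). The drop of Casp4 was larger in macrophages by 2.15 ± 0.21 log2 units, written as a difference of -2.15 (limma adjusted p = 1.42e-06), in every alternative. The rise of Nlrc4 was larger in macrophages by 1.01 ± 0.27 (adjusted p = 0.0202), a call that was lost with the pool as a block (0.0932), with libraries centred on their median (0.0544), and without LP monocyte pool V (0.0646) or tumour monocyte pool V (0.068). Between neutrophils and monocytes 2 of the 9 differed, 1 in each direction, against 9.11% of all genes (3.61% with a higher value in neutrophils and 5.5% with a lower one). Nlrc4 rose more in neutrophils (1.02 ± 0.31; adjusted p = 0.0433; 0.0685 with the pool as a block), and Aim2 differed by -1.46 ± 0.44 (adjusted p = 0.04), being 0.95 higher in tumour monocytes and -0.51 in tumour neutrophils.

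Neither of those neutrophil differences was firm: Nlrc4 lost its call without any 1 of 10 of the 12 libraries, all but LP neutrophil pool IV and tumour neutrophil pool V (adjusted p from 0.0506 to 0.102), and Aim2 without any 1 LP monocyte pool, LP neutrophil pool III or IV, tumour monocyte pool II or V, or tumour neutrophil pool V (0.0541 to 0.0966). Both were also lost by voom (0.196 and 0.0775), Nlrc4 with 1 RPKM added (0.51; 0.196), without a filter (0.0588) and with only these libraries fitted (0.104), and Aim2 after centring (0.0754). With the pool as a block Nlrp3 (0.96; adjusted p = 0.0445, against 0.122 without it) and Casp4 (0.69; 0.0488, against 0.0734) passed in the neutrophil comparison, Nlrp3 also with only these libraries fitted (0.0366) and Casp4 also after centring (0.0354) and without LP neutrophil pool III (0.0357). Without tumour neutrophil pool I Pycard passed as well (-1.27; 0.0465). Between MHCIIlow and MHCIIhi macrophages 0 of the 9 tumour differences differed by limma or voom and 2 did at an unadjusted p under 0.05, where 1.46% of all genes passed.

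The sorted populations were next compared within each tissue, with all 10 genes tested in tumour and 9 in LP, where Nlrp1b was under the minimum level in every group. Between MHCIIlow and MHCIIhi macrophages 0 of the 9 passed in LP and 0 of the 10 in tumour by limma or voom, and 3 did in each at an unadjusted p under 0.05, where 7.7% and 1.13% of all genes passed. Nlrp3 in tumour came nearest, at 5.11, 4.70 and 3.74 in MHCIIlow and 5.83, 5.44 and 5.11 in MHCIIhi libraries of pools I, V and VII. The difference was -0.94 ± 0.27 (limma adjusted p = 0.101), and it passed with the pool as a block (0.0229) and without tumour MHCIIlow pool I (-1.24; 0.0227). Within each of the 3 pools the MHCIIlow library was the lower.

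**Figure D4:**
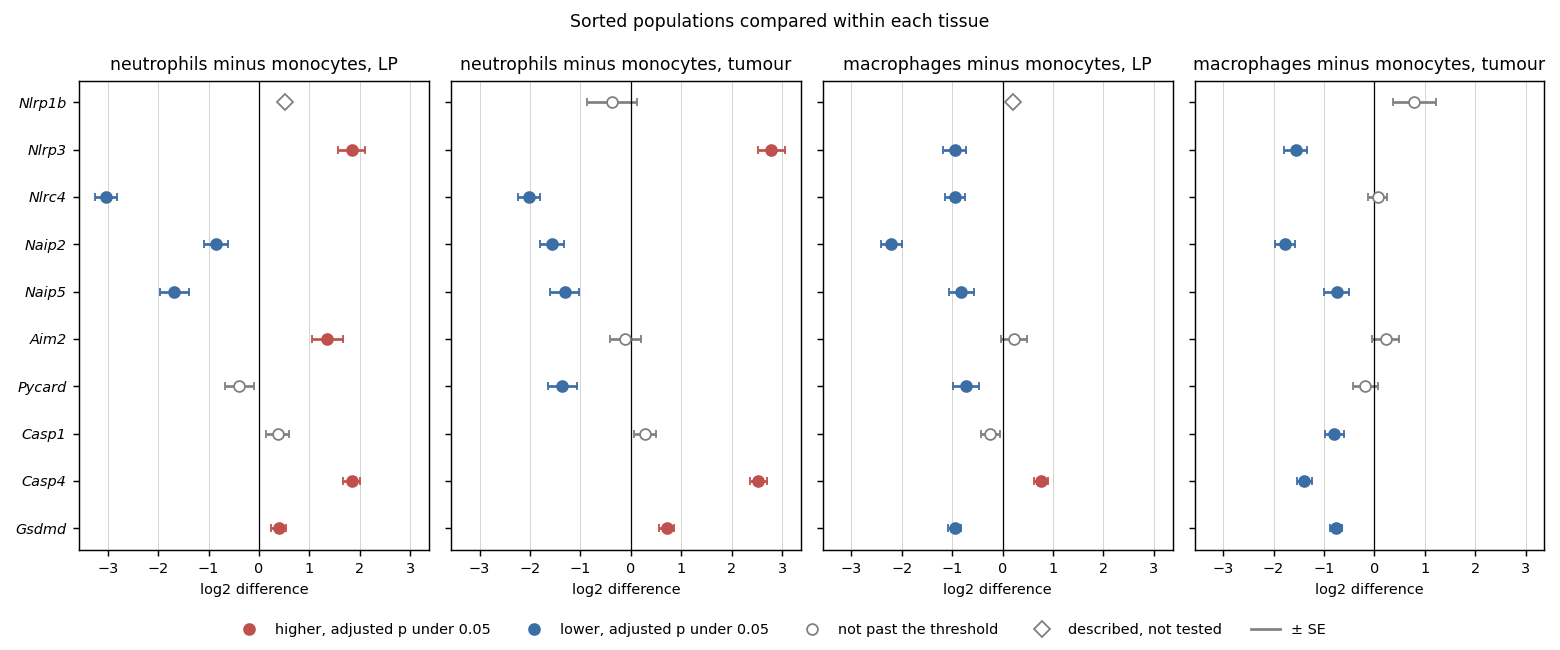
Log2 RPKM difference (x axis) of each gene (y axis) between neutrophils and monocytes and between macrophages (mean of both subsets) and monocytes, in LP and in tumour, with bars of ± SE and filled points where the limma adjusted p was under 0.05. The diamond marks Nlrp1b in LP, which was not tested there; Nlrp3 and Casp4 lie right of 0 and Nlrc4, Naip2 and Naip5 left of 0 in neutrophils of both tissues, while Casp4 is right of 0 in LP macrophages and left of 0 in tumour macrophages.

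Neutrophils differed from monocytes of the same tissue by an unequal set of sensors. In LP 4 of the 9 genes were higher in neutrophils and 3 lower, against 54.5% of all genes, of which 24.1% were higher and 30.4% lower. In tumour 3 of the 10 were higher and 4 lower, against 58.1% of all genes, of which 23.3% were higher and 34.9% lower. Nlrp3 was 3.57-fold higher in LP (1.83 ± 0.27; limma adjusted p = 9.39e-06) and 6.92-fold higher in tumour neutrophils (2.79 ± 0.27; adjusted p = 3.17e-08). Casp4 was 3.57-fold (1.83 ± 0.17; 1.97e-08) and 5.77-fold higher (2.53 ± 0.17; 1.79e-10), with every neutrophil library at 7.25 or above and every monocyte library at 5.70 or below. The receptors for bacterial proteins were lower: Nlrc4 by 8.18-fold in LP (-3.03 ± 0.22; 7.74e-10) and 4.04-fold in tumour (-2.01 ± 0.22; 1.71e-07), Naip5 by 3.21- and 2.48-fold (5.01e-05 and 0.000572), and Naip2 by 1.81- and 2.97-fold (0.00497 and 1.23e-05).

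Gsdmd was also higher in neutrophils in the deposited values, by 1.31-fold in LP (0.39 ± 0.15; limma adjusted p = 0.0289) and 1.63-fold in tumour (0.71 ± 0.15; 0.000342). These values divide reads by a normalised library size, 0.4655 to 0.483 of the reads on genes in tumour neutrophils and 0.6302 to 0.6824 in LP neutrophils. In monocytes it was 0.9807 to 1.0837 in tumour and 1.0966 to 1.2083 in LP. Per read Gsdmd was lower in neutrophils than in monocytes, so its direction rests on that scaling. In tumour pool I it had 3684 of 26.7 M reads in neutrophils and 5383 of 30.6 M in monocytes. Aim2 was 2.55-fold higher in LP neutrophils (3.52, 3.45 and 3.01 against 2.14, 1.88 and 1.91; adjusted p = 0.000997), and Pycard 2.56-fold lower in tumour neutrophils (3.51, 2.94 and 2.27 against 4.64, 4.30 and 3.85; 0.000457). The median difference of all genes was -0.24 in LP and -0.36 in tumour, and 0.05 and 0.09 after centring, which kept the directions of all these calls but took Naip2 in LP to -0.57 (adjusted p = 0.0597), Naip5 in tumour to -0.86 and Gsdmd to 0.68 in LP and 1.16 in tumour. The LP call of Gsdmd was lost without LP monocyte pool III or V or LP neutrophil pool III or IV (0.0913 to 0.141) and with the 6 libraries fitted alone (0.151).

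Macrophages were below monocytes for most of these genes. In LP 6 of the 9 were lower and Casp4 was higher, against 29.5% of all genes (12.5% higher and 17.0% lower). In tumour 6 of the 10 were lower and none higher, against 38.3% of all genes (16.8% higher and 21.4% lower). These comparisons use the same monocyte libraries as those of neutrophils. Naip2 fell furthest, 4.62-fold in LP (-2.21 ± 0.21; limma adjusted p = 9.64e-08) and 3.41-fold in tumour (-1.77 ± 0.21; 8.53e-07), with monocyte libraries at 4.68 to 5.88 and macrophage libraries at 2.25 to 4.19. Nlrp3 was 1.93- and 2.95-fold lower (0.00397 and 1.87e-05), and Gsdmd 1.94- and 1.69-fold lower (8.91e-06 and 6.8e-05).

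Nlrc4, 1.92-fold lower in LP macrophages (limma adjusted p = 0.000766), was at 0.06 ± 0.19 in tumour (0.827), a value whose sign turned under centring. Naip5 was 1.76-fold lower in LP (adjusted p = 0.016; 0.104 without LP monocyte pool IV) and 1.68-fold lower in tumour (0.0216; 0.0655 and 0.0946 without tumour monocyte pool II and V). Pycard was 1.65-fold lower in LP (0.0336), but not with the pool as a block (0.0909) or without LP MHCIIhi pool III or IV, MHCIIlow pool II, or monocyte pool IV or V (0.0553 to 0.146), and at -0.18 ± 0.25 in tumour (0.614). Casp4 was 1.70-fold higher in LP macrophages than in monocytes (0.76 ± 0.15; 0.000471) and 2.62-fold lower in tumour macrophages (-1.39 ± 0.15; 1.97e-07), and Casp1 was 1.73-fold lower in tumour macrophages (0.00268). For Nlrp1b the tumour values had been seen in choosing these genes, though their order between populations was not used. It differed by 0.80 ± 0.43 between tumour macrophages and monocytes and did not pass (0.152). Of 15 alternatives 3 passed: 1 RPKM added before logs (0.0112), voom (0.0117) and only the tumour macrophage and monocyte libraries fitted (0.0241). The difference is not counted as a change.

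Other genes of the pathway were read from lists of 47, of which 42 were in the table. Among the cytokine substrates Il1a was higher in tumour in all 4 populations, by 2.32, 1.98, 3.16 and 4.12 log2 units in MHCIIhi macrophages, MHCIIlow macrophages, monocytes and neutrophils (limma adjusted p at most 2.32e-05). Il1b was higher in 3, by 2.19 in MHCIIlow macrophages (9.73e-06), 1.12 in monocytes (0.0151) and 1.55 in neutrophils (0.000327), and differed by 0.52 in MHCIIhi macrophages (0.224), and the difference between the macrophage subsets in this tumour effect, 1.67, passed as well (0.0428). Its level reached 14.9 ± 0.26 in tumour neutrophils, above every gene of the inflammasome itself. Il18 fell by 1.23 in MHCIIlow macrophages (0.0026) and by 1.28 in neutrophils (0.00149). Thus in tumour neutrophils Nlrp3, Il1a and Il1b rose together while Il18 fell and Casp1 did not pass.

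Of the 11 other sensors tested, 1 was higher and 3 were lower in tumour MHCIIhi macrophages, 2 and 2 in MHCIIlow macrophages, and 0 and 2 in neutrophils, and in monocytes 0 passed by limma, 1 by voom and 1 at an unadjusted p under 0.05. Over all genes 19.5%, 23.3%, 32.2% and 9.29% passed in these comparisons, so the neutrophil count of 2 of 11 was below that share. Nlrx1, a mitochondrial member of the NLR family, rose by 1.12 in MHCIIhi (limma adjusted p = 0.0225) and 2.44 in MHCIIlow macrophages (2.01e-05). Ifi205, an interferon-inducible gene of the AIM2 family, fell by 4.83 (1.32e-06) and 2.97 (0.000258) there and by 2.83 in neutrophils (0.000334). Mefv, which encodes the sensor pyrin, fell by 2.02 in MHCIIhi macrophages (0.000133). Within tissues Nlrp12, which is transcribed mainly in granulocytes and monocytes, was higher in neutrophils than in monocytes by 7.41 in LP (4.36e-06) and 6.03 in tumour (4.1e-05).

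Of the 16 regulators and triggers tested, 1 was higher and 1 lower in MHCIIhi macrophages, 5 and 1 in MHCIIlow macrophages, 0 and 2 in monocytes, and 0 and 5 in neutrophils. Against the 19.5%, 23.3%, 9.29% and 32.2% of all genes, the MHCIIhi count was below and the neutrophil count close to the share over all genes. Irgm1, an interferon-induced GTPase, was lower in tumour in every population, by 2.00, 1.66, 2.12 and 2.38 log2 units in the order above (limma adjusted p at most 0.00843). Il18bp, the soluble inhibitor of IL-18, rose by 2.00 in MHCIIlow macrophages (0.00249), and Gbp7, a guanylate-binding protein, rose by 1.55 in MHCIIhi (0.00301) and 1.02 in MHCIIlow macrophages (0.037). Of the 10 other caspases and death effectors 0 were higher and 3 lower in MHCIIhi macrophages, 0 and 1 in MHCIIlow macrophages, 0 and 1 in monocytes, and 1 and 3 in neutrophils, beside the same shares of all genes, which the MHCIIlow count was below and the monocyte count close to. Ninj1, which ruptures the plasma membrane after gasdermin pores form, fell in tumour macrophages by 1.59 in MHCIIhi (0.000285) and 1.34 in MHCIIlow cells (0.0011). Casp12, the next gene of the caspase cluster, had 0 to 3 reads per neutrophil library in LP and 6 to 28 in tumour, too few for a fold.

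Between populations of a tissue many genes passed, 29.5% of all genes between macrophages and monocytes in LP and 38.3% in tumour, and 54.5% and 58.1% between neutrophils and monocytes, and the counts below, several of which lie near these shares, single out no list. The 3 cytokine substrates were lower in macrophages than in monocytes in LP and in tumour, while Il1b and Il18 were higher in neutrophils than in monocytes in LP, and Il1a and Il1b in tumour. Of the 11 other sensors, 1 was higher and 8 were lower in LP macrophages than in monocytes, and 0 and 6 in tumour. In neutrophils 3 were higher and 4 lower than in monocytes in LP, and 2 and 3 in tumour. Of the 16 regulators and triggers, 3 were higher and 7 lower in LP macrophages, 5 and 3 in tumour macrophages, 5 and 7 in LP neutrophils, and 7 and 7 in tumour neutrophils. Of the 10 other caspases and death effectors, 0 were higher and 2 lower in LP macrophages, 0 and 4 in tumour macrophages, 3 and 4 in LP neutrophils, and 3 and 3 in tumour neutrophils. Txnip, a thioredoxin-binding protein that has been linked to NLRP3 activation, was higher in neutrophils by 4.27 log2 units in LP and 2.42 in tumour. Between the macrophage subsets of LP, Il1b (-2.02; limma adjusted p = 0.000139), Mefv (-1.86) and Ripk3 (-0.98) were lower in MHCIIlow cells, and in tumour 0 genes of any of the 4 lists passed by limma or voom, with 0, 2, 3 and 0 genes at an unadjusted p under 0.05 among cytokine substrates, other sensors, regulators and triggers, and death effectors.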

How the data were processed

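Libraries were prepared by the authors with a modified SMARTSeq v2 protocol, which keeps no strand information, and sequenced as read pairs of 51 bases. Per the submitters' processing notes reads were aligned with STAR 2.3, counted with featureCounts 1.5 and normalised with edgeR, and the study gives GRCm38 with a GENCODE annotation. The deposited values are log2 RPKM of 17301 genes, with a small count added before logs. Per gene, 100.0% of the 415224 values returned whole reads (within 0.01 of a read), which gave the depths and the reads for voom. The library sizes in the deposited values ran from 0.4655 to 1.5075 of the reads on genes, and voom used these same sizes. Symbols and gene models came from GENCODE M21 (GRCm38; 17190 IDs matched).

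limma 3.58.1 (R 4.3.3; trend) was fitted once to the deposited log2 values of all 24 libraries with 8 group means, on the 12878 genes with a mean of at least 1 RPKM in at least 1 group. Nlrp1b, which passed this minimum only in tumour, was not tested between LP populations. Tests were two-sided, with Benjamini-Hochberg adjustment over all genes tested within each comparison and a threshold of 0.05, and p-values reflect the spread between 3 pools per group. ± SE is from this fit and ± SD is over 3 libraries. Recovery of known fold changes was tested on simulated data. The inflammasome genes and the lists were chosen with earlier results of these data known. By the rule for named genes all 10 inflammasome genes were named in each comparison, with the list genes that changed most among those past the threshold, the cytokine substrates, and the 5 tested genes most correlated with Nlrp1b. Casp12 and the second values of list genes in other populations were named after their values were seen.

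Pool numbers mark shared donors within a tissue, per the labels. The reported fit did not pair libraries of the same pool, and the pool was used only in an alternative. The residuals of the 29 same-pool pairs correlated by -0.0661 to 0.255 (median 0.017), and the consensus correlation was 0.0476. Alternatives were log2(RPKM + 1), no filter, a minimum of 5 RPKM, libraries centred on their median, voom on the recovered reads, fits of only the libraries compared, the pool as a block, and leaving out each library. Promoter windows came from RefSeq (GRCm38.p6) and were searched on both strands with Python 3.11.15. Protein sequences were not used here.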

Additional observations from a re-analysis of the deposited data

Results flagged for a closer look

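The tumour difference of 3 genes differed between populations by a test of that difference itself, 1 of them in both comparisons. Casp4 differed by -2.15 log2 units between macrophages and monocytes: it fell by 2.31 and 2.91 in the macrophage subsets and stood at -0.46 in monocytes. Nlrc4 differed by 1.01 between macrophages and monocytes and by 1.02 between neutrophils and monocytes, since its tumour difference was 1.62 to 1.64 in macrophages and neutrophils and 0.62 in monocytes. Aim2 differed by -1.46 between neutrophils and monocytes, with 0.95 in monocytes and -0.51 in neutrophils, neither of which passed alone. These comparisons share the monocyte libraries. Against monocytes, the macrophage difference of Casp4 passed in all 25 alternatives and that of Nlrc4 in 21 of 25. The neutrophil difference of Nlrc4 passed in only 4 of 19 alternatives and that of Aim2 in 9 of 19, and neither passed by voom. Nothing was tested for single outlying libraries, as every group held 3.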

How the results depend on the processing

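The average over populations kept all 9 calls under every alternative in which it was fitted, and the Casp4 and Nlrc4 differences in macrophages kept theirs. The count of changed genes in monocytes between tumour and LP, 1 by the reported fit, was 4 with log2(RPKM + 1), 2 at a minimum of 5 RPKM, 2 after centring and 5 by voom, and 0 to 2 when 1 library was left out. For the difference in tumour effect of neutrophils and monocytes (2 genes) it was 1 with log2(RPKM + 1), 1 without a filter and 0 by voom, and 0 to 2 without 1 library, the 2 being Aim2 and Pycard without tumour neutrophil pool I. For that of macrophages and monocytes (2 genes) it was 1 after centring, and 1 to 2 without 1 library. Leaving out 1 library gave 4 to 6 genes in MHCIIlow macrophages (7 with all libraries), 5 to 6 in MHCIIhi macrophages, 4 to 5 in neutrophils, and 0 to 1 between the macrophage subsets of tumour. Nlrc4 between tumour macrophages and monocytes, 0.06, was -0.10 after centring and ran from -0.0465 to 0.155 without 1 library. Other values that did not pass also turned sign without 1 library: tumour minus LP for Nlrp3 in MHCIIlow macrophages ran from -0.354 to 0.332, Pycard between tumour macrophages and monocytes from -0.383 to 0.011, and the untested difference of Nlrp1b in tumour effect between the subsets from -0.935 to 0.0557. The cause of these changes was not tested.

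With the pool as a block, which pairs libraries of the same donors, 1 gene passed between the macrophage subsets of tumour (Nlrp3, 0 without the block) and 1 for the tumour effect of macrophages against monocytes, Nlrc4 between tumour macrophages and monocytes was -0.0184, and besides the calls given with the block in the text no other changed. The lowest value of these genes was 43 reads, and each group held 3 pools.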
